A study of Mus musculus with 12 samples.

Results

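The 41 genes described here carry out DNA replication and cell division. They were chosen by symbol, and 41 of 41 were found among the 24319 entries of the deposited table and passed the filter on low values, which left 11991 genes tested. By textbook role 16 act in S phase (9 in replication licensing and the fork, 4 in nucleotide supply, 3 as regulators of entry) and 25 in G2 and mitosis (7 cyclins and entry kinases, 7 spindle proteins, 7 kinetochore, checkpoint and passenger proteins, 2 of ubiquitin-driven exit, 2 of chromatin). They were measured by RNA-seq in CD45+ immune cells, captured with a PE-labelled antibody and magnetic beads from livers of C57BL/6 mice. All mice had received human c-Myc and N-ras by hydrodynamic transfection on day 0. Control mice were given PBS on days 14, 16, 18, 20 and 22 and 200 µg of IgG on days 17, 19 and 21. In the polyIC group, polyIC (4 mg/kg), a synthetic double-stranded RNA, took the place of PBS. In the antiPDL1 group, 200 µg of a PD-L1 antibody took the place of IgG, and the combination group received polyIC and the antibody. Each group had 3 libraries, numbered 0 to 2 by the labels, and the labels do not say whether these came from separate mice. All p-values therefore measure the spread between these samples, which may be technical. Euthanasia was on day 24 by the treatment protocol, whereas the time point label reads day 22. The library antiPDL1 replicate 2 stood apart from its group, and control replicate 2 stood apart in some genes, so counts are also given without them.

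Before DNA is copied, the MCM helicase is loaded onto replication origins, and at the start of S phase E2F factors switch on genes for the helicase, the fork and the nucleotide supply. In G2 the cyclins A and B activate Cdk1, the FoxM1 and B-Myb complexes drive the mitotic genes, and the spindle, the kinetochores and the anaphase-promoting complex then separate the chromosomes. Most mature leukocytes of the liver are at rest, while activated lymphocytes and myeloid precursors divide, so these transcripts are widely read as a mark of dividing cells.

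Promoters of 3 S phase and 3 M phase genes are shown with the motif letters found in them. Of those shown, only Mcm5 held an E2F motif, and only Kif11 and Top2a held the CHR letters. Rrm2, Pcna and Ccnb1 held CCAAT alone. They were taken from the 30 genes of the naming rule, as those with the smallest adjusted p in the combination that had a motif match. Rrm1, Mcm6 and Hmmr, which that rule does not name, also had a match and a smaller adjusted p than some of those shown. RefSeq promoters (GRCm38.p6, 250 bases before to 50 after the start) were matched by symbol for 33 of the 41 genes. Each line runs 5′ to 3′ on the strand of the gene, with motif letters in capitals. The letters searched, on both strands, were TTTGAA (the core of the cell cycle homology region, CHR), CCAAT, and the E2F motifs TTTGGCGC, TTTCGCGC, TTTCCCGC and TTTGGCGG. Rrm2 lies at chr12:24708004-24708303 (plus strand), Pcna at chr2:132253131-132253430 (minus), Mcm5 at chr8:75109259-75109558 (plus), Kif11 at chr19:37376132-37376431 (plus), Top2a at chr11:99024140-99024439 (minus) and Ccnb1 at chr13:100786437-100786736 (minus).
Rrm2: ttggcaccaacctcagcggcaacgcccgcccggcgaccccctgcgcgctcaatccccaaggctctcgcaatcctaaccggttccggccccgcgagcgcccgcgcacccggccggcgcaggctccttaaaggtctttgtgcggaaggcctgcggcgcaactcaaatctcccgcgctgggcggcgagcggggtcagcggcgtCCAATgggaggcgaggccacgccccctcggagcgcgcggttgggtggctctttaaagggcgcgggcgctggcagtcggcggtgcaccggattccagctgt
Pcna: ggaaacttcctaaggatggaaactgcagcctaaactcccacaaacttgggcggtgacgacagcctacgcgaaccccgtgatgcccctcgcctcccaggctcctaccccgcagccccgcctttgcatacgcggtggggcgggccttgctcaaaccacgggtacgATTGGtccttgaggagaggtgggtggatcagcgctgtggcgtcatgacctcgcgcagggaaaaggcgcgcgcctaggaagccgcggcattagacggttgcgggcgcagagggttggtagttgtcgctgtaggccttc
Mcm5: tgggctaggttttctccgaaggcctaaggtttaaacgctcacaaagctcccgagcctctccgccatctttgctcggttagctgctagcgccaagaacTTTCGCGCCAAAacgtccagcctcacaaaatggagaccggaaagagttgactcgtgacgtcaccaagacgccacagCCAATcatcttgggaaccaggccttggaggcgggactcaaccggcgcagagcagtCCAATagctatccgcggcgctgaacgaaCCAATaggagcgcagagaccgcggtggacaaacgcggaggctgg
Kif11: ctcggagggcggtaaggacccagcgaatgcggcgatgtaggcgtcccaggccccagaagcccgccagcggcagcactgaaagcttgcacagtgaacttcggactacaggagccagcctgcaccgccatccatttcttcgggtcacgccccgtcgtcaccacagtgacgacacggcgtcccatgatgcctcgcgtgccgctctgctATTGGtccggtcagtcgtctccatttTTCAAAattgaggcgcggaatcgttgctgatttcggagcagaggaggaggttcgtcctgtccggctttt
Top2a: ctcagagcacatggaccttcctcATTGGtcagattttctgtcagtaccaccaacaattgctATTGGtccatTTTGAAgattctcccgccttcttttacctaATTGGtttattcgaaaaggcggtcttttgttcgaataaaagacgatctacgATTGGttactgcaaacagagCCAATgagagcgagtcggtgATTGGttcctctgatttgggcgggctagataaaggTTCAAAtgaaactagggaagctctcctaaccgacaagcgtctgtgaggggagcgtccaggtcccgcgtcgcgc
Ccnb1: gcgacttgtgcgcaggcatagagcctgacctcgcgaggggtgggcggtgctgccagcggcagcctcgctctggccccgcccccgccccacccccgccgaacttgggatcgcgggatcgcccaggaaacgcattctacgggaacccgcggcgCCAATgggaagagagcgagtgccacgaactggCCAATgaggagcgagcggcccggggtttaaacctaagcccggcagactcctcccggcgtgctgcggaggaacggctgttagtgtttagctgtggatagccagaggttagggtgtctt
Of the 21 M phase promoters (20 genes), 16 held the CHR letters (76.2%), 19 held CCAAT (90.5%) and 1, of Cdk1, held an E2F motif (4.76%). Of the 14 S phase promoters (13 genes), 1, of Mcm2, held the CHR letters (7.14%), 9 held CCAAT (64.3%) and 5, of Cdc6, Mcm3, Mcm5, Mcm6 and Mcm7, held an E2F motif (35.7%). Among all 32851 promoters of that length the shares were 17.9% for CHR, 37.4% for CCAAT and 2.37% for E2F. The CHR share of the M phase promoters and the E2F share of the S phase promoters were above those of all promoters, and these differences were not tested. All 16 M phase promoters with CHR letters also held CCAAT, a pair found in 6.95% of all promoters. In Mcm5 the motifs TTTCGCGC and, on the other strand, TTTGGCGC overlap in 1 stretch. The CHR letters began 19 bases before the start in Kif11 and 179 and 23 bases before it in Top2a. A match describes letters in a window and is not a binding site.

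Transcripts of nearly the whole set were higher in the combination than in control. In limma 35 of 41 rose and 0 fell at adjusted p under 0.05, where 13.1% of all genes tested rose and 16.3% fell. The median difference over the 41 genes was 1.58 in log2(FPKM + 1), against 0.05 over all genes tested. FPKM are fragment counts scaled by transcript length and library size, and differences here are on this log2 scale, which understates the change of low genes. With polyIC alone 12 of 41 rose and 0 fell (2.47% of all genes rose and 1.18% fell), with a median of 1.07 against -0.01. With the antibody alone 0 of 41 passed (0.0% of all genes rose), while 33 were higher at an unadjusted p under 0.05 (7.61% of all genes) and the median was 1.05 against 0.01. The 3 comparisons share the same control libraries. In bulk samples more dividing cells and more of this RNA per cell cannot be told apart.

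**Figure D1:**
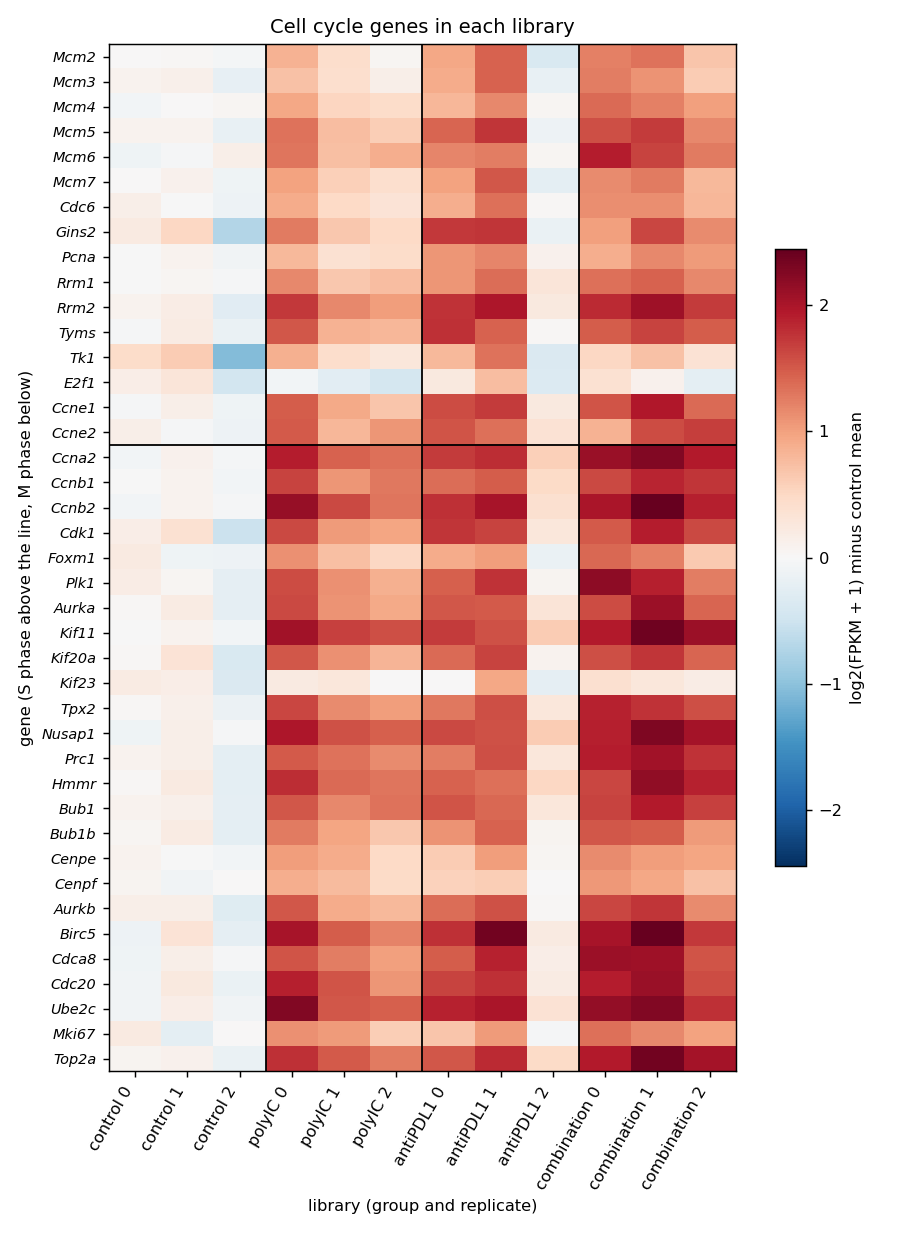
Colour gives log2(FPKM + 1) of each of the 41 genes (vertical axis, S phase above the line) in each of the 12 libraries (horizontal axis), minus the mean of the 3 control libraries. The antiPDL1 replicate 2 column is paler than the other 2 of its group, and E2f1, Tk1 and Kif23 are the palest entries of the combination.

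The libraries of a group differed in the whole set at once. As a summary, each gene was divided by its control mean and the median over the 41 genes was taken in each library. In replicate order it was 1.02, 1.09 and 0.881 in control, 3.12, 2.20 and 1.90 with polyIC, 2.90, 3.27 and 1.07 in antiPDL1 and 3.35, 3.81 and 2.99 in the combination. The library antiPDL1 replicate 2 was thus near control, and the other 2 of that group were near the combination. It was the lowest of its group in 41 of 41 genes. Replicate 0 was the highest polyIC library in 40 of 41 genes, and replicate 2 was the lowest in 35. Without antiPDL1 replicate 2, 38 of 41 genes rose with the antibody (12% of all genes), 32 with polyIC (5.23%) and 38 with the combination (19.9%). That library stands out by the values of these same genes. Leaving it out had to raise the antibody level of each of them, here and below, and left 2 libraries in that group. The antibody count without it is therefore a description and not separate evidence. All groups share 1 estimate of the spread, so leaving out a library of 1 group moves the tests of the others. With control replicate 2 also left out, the counts were 38 (14.5%), 32 (10.3%) and 38 (21.1%). When antiPDL1 replicate 2 was left out, the genes that did not pass with the antibody or with the combination were E2f1, Kif23 and Tk1.

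Genes that load and run the replication fork rose with the combination in 6 of 9 cases (median 1.07). With polyIC or the antibody 0 of 9 passed the threshold, though all 9 differences were above 0 in both. For this and the role counts below, 13.1% of all genes rose with the combination, 2.47% with polyIC and 0.0% with the antibody. Mcm5, a subunit of the MCM helicase whose promoter is shown above, was at 27.8, 27.6 and 22.9 FPKM in control, 67.1, 44.4 and 40.1 with polyIC, 71.0, 89.5 and 23.7 in antiPDL1 and 79.2, 86.8 and 60.3 in the combination, in replicate order. Every combination and polyIC library was above every control, and antiPDL1 replicate 2 lay within the control range. The difference was 1.48 ± 0.40 (SE, adjusted p = 0.0188) for the combination and 0.90 (adjusted p = 0.216) for polyIC. Mcm6 had the largest change of the helicase subunits, from 36.0 ± 3.40 FPKM in control to 114 ± 24.9 in the combination (SD, n = 3 each), a difference of 1.61 ± 0.30 (SE, adjusted p = 0.00459). Pcna, the sliding clamp that holds the polymerase on DNA, was at 67.4, 72.1 and 63.3 FPKM in control, 118, 87.8 and 93.0 with polyIC, 144, 155 and 72.5 in antiPDL1 and 126, 153 and 139.6 in the combination. Its groups did not overlap for the combination or polyIC, and antiPDL1 replicate 2 was level with the highest control. The combination difference was 1.03 ± 0.26 (SE, adjusted p = 0.0135), and that of the antibody was 0.79 (adjusted p = 0.211).

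Cdc6, which loads the helicase, was at 1.72 ± 0.256 FPKM in control and 4.58 ± 0.705 in the combination, a rise of 1.03 (adjusted p = 0.0208). Mcm4 rose by 1.20 (adjusted p = 0.00712) and Mcm7 by 1.07 (adjusted p = 0.0421). The remaining 3 of the 9 missed the threshold. Mcm2 was at 18.6 ± 0.505 FPKM in control and 41.1 ± 9.36 in the combination, a difference of 1.07 (adjusted p = 0.0568). Mcm3 differed by 0.99 (adjusted p = 0.0507). Gins2, of the GINS complex of the active helicase, was at 9.79, 12.1 and 4.66 FPKM in control and 17.5, 27.8 and 19.6 in the combination, with 1.26 (adjusted p = 0.0704). Its control libraries spread more widely than those of the helicase subunits, with replicate 2 the lowest.

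Nucleotide supply genes rose with the combination in 3 of 4 cases (median 1.43). Rrm2, the cell cycle-limited subunit of ribonucleotide reductase, was at 19.0, 20.4 and 14.5 FPKM in control, 60.8, 41.3 and 36.9 with polyIC, 62.4, 72.5 and 21.3 in antiPDL1 and 65.1, 77.8 and 60.5 in the combination. All combination and polyIC libraries were above all controls, and the lowest antiPDL1 library lay just above the highest control. The difference was 1.86 ± 0.38 (SE, adjusted p = 0.00604) for the combination, 1.30 (adjusted p = 0.0815) for polyIC and 1.32 (adjusted p = 0.187) for the antibody. Rrm1, the large subunit of the same enzyme, was at 23.8 ± 0.674 FPKM in control and 61.2 ± 5.63 in the combination and rose by 1.32 (adjusted p = 0.00430). Tyms, which makes thymidylate, was at 4.18 ± 0.685 FPKM in control and 14.0 ± 1.11 in the combination and rose by 1.54 (adjusted p = 0.0120). Tk1, the thymidine salvage kinase of S phase, was the exception. It was at 35.2, 39.5 and 11.7 FPKM in control, 47.2, 34.5 and 31.1 with polyIC, 45.0, 65.0 and 19.8 in antiPDL1 and 36.7, 42.6 and 32.7 in the combination. Control replicate 2 was far below the other 2 controls, the groups overlapped, and the difference of 0.52 (adjusted p = 0.408) did not pass. Without control replicate 2 that difference was -0.0096.

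Among the regulators of S phase entry, the cyclin E genes rose with the combination and E2f1 did not pass. Ccne1, a cyclin that activates Cdk2 at the start of S phase, was at 3.10, 3.63 and 2.91 FPKM in control, 10.7, 6.96 and 5.69 with polyIC, 11.6, 12.7 and 3.97 in antiPDL1 and 11.2, 15.2 and 9.92 in the combination. No combination library fell near the control range, and the difference was 1.62 ± 0.35 (SE, adjusted p = 0.00752). Ccne2, its paralog, was at 2.49 ± 0.331 FPKM in control and 8.33 ± 2.69 in the combination, a rise of 1.38 (adjusted p = 0.0101). E2f1, the factor whose targets include many of the genes above, was at 12.6, 14.0 and 7.96 FPKM in control, 10.7, 9.21 and 8.06 with polyIC, 13.3, 19.6 and 8.70 in antiPDL1 and 14.7, 12.2 and 9.43 in the combination. All 4 groups overlapped, and polyIC lay lowest by its mean. The difference was 0.08 ± 0.28 (SE, adjusted p = 0.845) for the combination and -0.25 (adjusted p = 0.620) for polyIC, the only 1 of 41 genes below 0 in that comparison. The sign of the combination value was not stable, at -0.14 without control replicate 2.

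**Figure D2:**
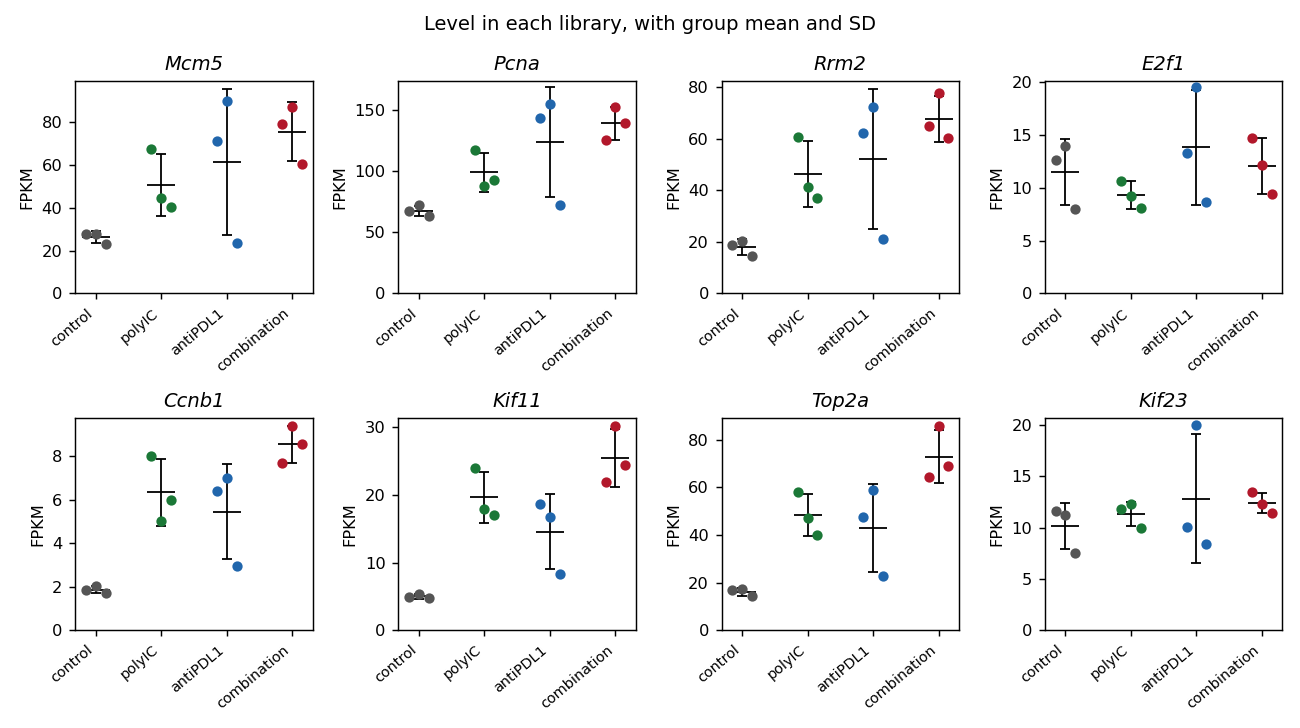
FPKM (vertical axis, from 0) of 8 named genes in each library, by group, with the mean and SD of 3 libraries as bars. Combination points lie above all control points for Mcm5, Pcna, Rrm2, Ccnb1, Kif11 and Top2a, and the groups overlap for E2f1 and Kif23.

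Mitotic cyclins and entry kinases rose with the combination in 7 of 7 cases (median 1.73) and with polyIC in 3 of 7, the 3 cyclins. Ccnb1, cyclin B1, which activates Cdk1 at entry into mitosis, was at 1.85, 2.02 and 1.71 FPKM in control, 8.0, 5.02 and 5.97 with polyIC, 6.39, 7.0 and 2.94 in antiPDL1 and 7.69, 9.36 and 8.55 in the combination. No treated library was as low as the highest control, and antiPDL1 replicate 2 was the lowest of the 9 treated ones. Its difference was 1.73 ± 0.25 (SE, adjusted p = 0.00188) for the combination, 1.34 ± 0.25 (SE, adjusted p = 0.0169) for polyIC and 1.11 (adjusted p = 0.143) for the antibody. Ccna2, cyclin A2 of S phase and G2, was at 12.6 ± 0.818 FPKM in control, 39.6 ± 9.11 with polyIC, 36.1 ± 14.7 in antiPDL1 and 57.5 ± 6.63 in the combination (SD, n = 3 each). It rose by 2.10 ± 0.29 (SE, adjusted p = 0.00169) with the combination and 1.56 (adjusted p = 0.0160) with polyIC. Ccnb2, cyclin B2, was at 10.3 ± 0.626 FPKM in control, 36.2 ± 10.9 with polyIC, 32.3 ± 16.2 in antiPDL1 and 48.6 ± 10.4 in the combination, with rises of 2.11 (adjusted p = 0.00339) and 1.68 (adjusted p = 0.0333) in the same order.

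Cdk1, the kinase these cyclins activate, was at 9.37 ± 3.11 FPKM in control, 22.6 ± 6.16 with polyIC, 24.9 ± 11.9 in antiPDL1 and 31.2 ± 5.04 in the combination. It rose by 1.67 (adjusted p = 0.00873) with the combination and was at 1.21 (adjusted p = 0.0938) with polyIC. Plk1, a kinase of mitotic entry and spindle formation, was at 5.84, 5.27 and 4.17 FPKM in control and 26.4, 21.5 and 13.4 in the combination. The combination libraries were spread more widely than the controls but did not overlap them, and the rise was 1.77 (adjusted p = 0.00851). Aurka, the kinase of the spindle poles, rose by 1.70 (adjusted p = 0.00450). Foxm1, the transcription factor that drives many of the mitotic genes, was at 2.60 ± 0.480 FPKM in control and 6.79 ± 2.02 in the combination and rose by 1.09 (adjusted p = 0.0233), the smallest rise of the 7.

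Spindle genes rose with the combination in 6 of 7 cases (median 1.89) and with polyIC in 5 of 7. Kif11, the kinesin that pushes the spindle poles apart, was at 4.94, 5.40 and 4.70 FPKM in control, 23.9, 18.0 and 17.0 with polyIC, 18.7, 16.7 and 8.24 in antiPDL1 and 21.9, 30.1 and 24.4 in the combination. Every treated library was above every control, and the ratio of group means over control was 5.08 in the combination, 3.92 in polyIC and 2.90 in antiPDL1. Its difference was the largest of the 41 in the combination, 2.13 ± 0.26 (SE, adjusted p = 0.00110), and in polyIC, 1.76 ± 0.26 (SE, adjusted p = 0.00832). With the antibody it was 1.30 (adjusted p = 0.0965), and this adjusted p was the smallest of the 41, shared with Nusap1, a microtubule-bundling protein of the spindle. Nusap1 was at 6.71 ± 0.675 FPKM in control, 23.6 ± 4.88 with polyIC, 18.3 ± 6.50 in antiPDL1 and 31.5 ± 4.56 in the combination, with rises of 2.07 (adjusted p = 0.00110) in the combination and 1.66 (adjusted p = 0.00985) in polyIC.

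Tpx2, which activates Aurora A on the spindle, was at 5.30 ± 0.578 FPKM in control, 14.4 ± 3.54 with polyIC, 12.9 ± 5.68 in antiPDL1 and 20.1 ± 2.17 in the combination. It rose by 1.74 (adjusted p = 0.00304) with the combination and 1.27 (adjusted p = 0.0385) with polyIC. Prc1, which bundles microtubules of the central spindle, rose by 1.91 (adjusted p = 0.00197) and 1.32 (adjusted p = 0.0297), and Hmmr, a spindle-associated protein, by 1.89 (adjusted p = 0.00169) and 1.49 (adjusted p = 0.0145), in the same order. Kif20a, a kinesin of cytokinesis, was at 4.39 ± 1.27 FPKM in control and 14.9 ± 1.74 in the combination. It rose by 1.58 (adjusted p = 0.00895) with the combination and was at 1.15 (adjusted p = 0.0939) with polyIC. Kif23, the centralspindlin kinesin of cytokinesis, was the only mitotic gene that did not pass in the combination. It was at 11.6, 11.3 and 7.55 FPKM in control, 11.8, 12.3 and 10.01 with polyIC, 10.1, 20.0 and 8.37 in antiPDL1 and 13.4, 12.3 and 11.5 in the combination. The groups overlapped in each comparison with control, with control replicate 2 the lowest library and antiPDL1 replicate 1 the highest, and the combination difference was 0.29 (adjusted p = 0.436). Its promoter held the CHR and CCAAT letters.

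Kinetochore, checkpoint and passenger genes rose with the combination in 7 of 7 cases (median 1.51) and with polyIC in 1 of 7, Bub1. Bub1, a spindle checkpoint kinase, was at 2.34, 2.45 and 1.72 FPKM in control, 7.97, 6.12 and 6.91 with polyIC, 8.18, 7.34 and 2.81 in antiPDL1 and 8.83, 11.01 and 9.02 in the combination. Treated libraries were above all controls, with antiPDL1 replicate 2 the nearest to them. The difference was 1.75 ± 0.28 (SE, adjusted p = 0.00277) for the combination and 1.34 (adjusted p = 0.0298) for polyIC. Birc5, survivin of the chromosomal passenger complex, was at 14.3, 20.1 and 13.4 FPKM in control, 66.8, 45.6 and 37.5 with polyIC, 56.8, 84.5 and 18.5 in antiPDL1 and 66.8, 89.8 and 54.3 in the combination. Its antiPDL1 libraries covered nearly the whole range from control to combination, and the antibody difference of 1.45 (adjusted p = 0.203) was the largest of the 41 without passing. The combination difference was 2.06 ± 0.45 (SE, adjusted p = 0.00793) and that of polyIC 1.57 (adjusted p = 0.0785).

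Aurkb, the kinase of that complex, was at 9.12 ± 1.65 FPKM in control, 20.6 ± 6.07 with polyIC, 20.8 ± 10.2 in antiPDL1 and 27.9 ± 5.86 in the combination and rose by 1.51 (adjusted p = 0.0113) with the combination. Cdca8, borealin of the same complex, was at 8.43 ± 0.810 FPKM in control and 34.6 ± 7.25 in the combination and rose by 1.90 (adjusted p = 0.00468). Bub1b, a checkpoint protein, rose by 1.35 (adjusted p = 0.00975). Of the kinetochore proteins, Cenpe rose by 1.04 (adjusted p = 0.00781) and Cenpf by 0.91 (adjusted p = 0.00658). Cenpf was the lowest of the 41 genes per transcript length, at 0.807 ± 0.0998 FPKM in control and 2.40 ± 0.397 in the combination, so the added 1 FPKM weighs most on it.

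The ubiquitin genes of mitotic exit rose in 2 of 2 cases with the combination (median 1.96) and with polyIC. Ube2c, the ubiquitin-conjugating enzyme of the anaphase-promoting complex, was at 16.4, 19.6 and 16.3 FPKM in control, 87.2, 51.5 and 49.6 with polyIC, 66.8, 72.0 and 22.4 in antiPDL1 and 80.2, 86.4 and 62.0 in the combination. Treated libraries were above all controls, and antiPDL1 replicate 2 was the lowest of them. It rose by 2.06 ± 0.38 (SE, adjusted p = 0.00438) with the combination and 1.75 (adjusted p = 0.0334) with polyIC. Cdc20, the activator of that complex, was at 6.45 ± 1.14 FPKM in control, 20.5 ± 5.93 with polyIC, 18.1 ± 9.20 in antiPDL1 and 26.3 ± 4.77 in the combination and rose by 1.87 (adjusted p = 0.00538) with the combination and 1.5 (adjusted p = 0.0484) with polyIC. The chromatin genes rose in 2 of 2 cases with the combination (median 1.64) and in 1 of 2 with polyIC. Top2a, the topoisomerase that untangles sister chromosomes, was at 16.8, 17.2 and 14.2 FPKM in control, 57.9, 47.1 and 40.1 with polyIC, 47.5, 58.8 and 22.6 in antiPDL1 and 64.2, 85.6 and 68.8 in the combination. Its control, polyIC and combination libraries formed separate ranges, and its rises were 2.11 ± 0.29 (SE, adjusted p = 0.00180) with the combination and 1.52 (adjusted p = 0.0207) with polyIC. Mki67, the Ki-67 protein that coats mitotic chromosomes, was at 6.30 ± 1.15 FPKM in control, 12.8 ± 2.5 with polyIC, 10.2 ± 3.92 in antiPDL1 and 15.4 ± 2.13 in the combination. It rose by 1.17 (adjusted p = 0.00805) with the combination and was at 0.91 (adjusted p = 0.0739) with polyIC.

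**Figure D3:**
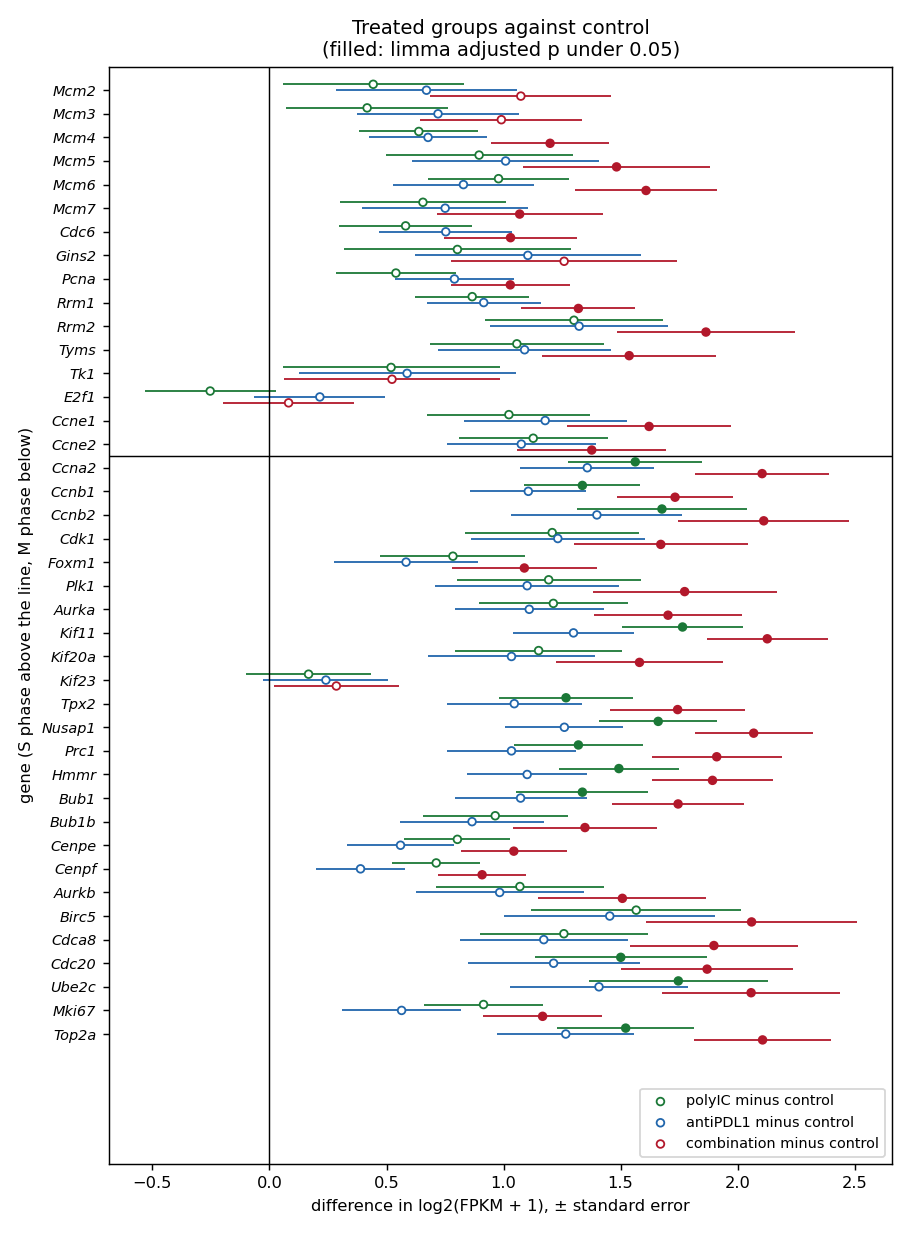
Difference from control in log2(FPKM + 1) with its standard error (horizontal axis) for each of the 41 genes and each treated group, filled where the limma adjusted p was under 0.05. All filled polyIC points belong to M phase genes, no antiPDL1 point is filled, and 35 of 41 combination points are.

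The M phase genes had a larger median difference from control than the S phase genes in each comparison. In polyIC 12 of 25 M phase genes and 0 of 16 S phase genes rose (2.47% of all genes), with medians of 1.27 and 0.73. At an unadjusted p under 0.05 the counts were 24 of 25 and 8 of 16, against 11% of all genes. In the combination 24 of 25 and 11 of 16 rose (13.1% of all genes), with medians of 1.75 and 1.23. The antibody medians were 1.10 and 0.81. The difference between the S and M phase sets was not tested. The share of S phase genes among the polyIC calls moved with the setting. Calls were 23 of 25 M phase and 9 of 16 S phase genes without antiPDL1 replicate 2 (5.23% of all genes). They were 23 and 4 after quantile normalization, and 19 and 2 after median-of-ratios rescaling. For these scalings and for the libraries left out next, the share of all genes is not given here. Leaving out polyIC replicate 0 took the polyIC count to 0, and leaving out control replicate 0 or 1 took it to 2 (Kif11 and Nusap1). The count was 5 when polyIC replicate 1 was left out and 4 when polyIC replicate 2 was, and Kif11 and Nusap1 were among the calls in both cases.

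Ranges that did not overlap gave a like order. In the combination 38 of 41 genes were higher in 3 of 3 libraries than in every control (25.6% of all genes), the exceptions being Tk1, E2f1 and Kif23. In polyIC it was 37 of 41 (16.2%), with Gins2 as the further exception, and in antiPDL1 18 of 41 (4.61%). In none of the 41 genes did a treated range lie below control. In two-sided exact permutation tests of single genes, 3 libraries against 3 cannot give a p under 0.1.

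The treated groups were also compared with each other. Against polyIC, the combination was higher by a median of 0.45, with 41 of 41 genes above 0. In limma 0 of 41 passed (0.167% of all genes rose), 1 was higher at an unadjusted p under 0.05 (4.29% of all genes), and the smallest adjusted p was 0.365. Without antiPDL1 replicate 2, 22 were higher at an unadjusted p under 0.05 (9.67% of all genes) and the smallest adjusted p was 0.0695, with the same median. The difference from polyIC was 0.36 ± 0.26 for Kif11, 0.59 ± 0.29 for Top2a and 0.59 ± 0.40 for Mcm5 (SE). Their ranges did not overlap in 7 of 41 genes (13.3% of all genes). Against antiPDL1, the combination was higher by a median of 0.52, with 39 of 41 above 0. In limma 0 passed (0.1% of all genes rose), 12 were higher at an unadjusted p under 0.05 (6.32%), and 11 of 41 ranges did not overlap (8.28%). Without antiPDL1 replicate 2 that median was 0.12, with 26 of 41 above 0 and 5 higher at an unadjusted p under 0.05 (3.8%). PolyIC and antiPDL1 differed by a median of 0.10, with 0 genes passing in limma (0.217% of all genes rose), 0 at an unadjusted p under 0.05 (5.95%) and 0 of 41 ranges separate (8.69%). Without antiPDL1 replicate 2 the direction turned, to a median of -0.31 with 5 of 41 above 0, 0 passing and 11 lower at an unadjusted p under 0.05 (14.4%). Missing the threshold does not show that the groups were alike.

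An interaction contrast compared the effect of polyIC with and without the antibody. Its median over the 41 genes was -0.57, the combination being lower than the sum of the 2 single differences. In limma 0 of 41 passed (0.0167% of all genes were lower), and 2 were lower at an unadjusted p under 0.05 (1.53%). Without antiPDL1 replicate 2 the median was -1.02, 31 genes were lower at an unadjusted p under 0.05 (5.11% of all genes), and the smallest adjusted p was 0.234.

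Other genes of the cell cycle were taken from lists set by role. Over all genes tested, 13.1% rose and 16.3% fell with the combination, 2.47% rose with polyIC and 0.0% with the antibody. At an unadjusted p under 0.05 in limma, 7.61% were higher with the antibody. Of 46 other replication and S phase genes, 35 rose and 0 fell with the combination (median 1.06), 1 (Dbf4, the activator of the Cdc7 kinase, 0.90, adjusted p = 0.0498) rose with polyIC (median 0.62) and 0 with the antibody (median 0.73, 27 at an unadjusted p under 0.05 in limma). Dut, which keeps uracil out of DNA, had the largest difference, from 12.1 ± 2.11 FPKM in control to 54.2 ± 4.68 in the combination, 2.09 (adjusted p = 0.00439). Pold1, the catalytic subunit of polymerase delta, had the smallest, 0.29 (adjusted p = 0.496). Of 60 other G2 and mitosis genes, 56 rose and 0 fell with the combination (median 1.48), 23 rose with polyIC (median 1.09) and 0 with the antibody (median 0.89, 51 at an unadjusted p under 0.05). Ncapg of condensin went furthest, from 3.81 ± 0.188 FPKM to 18.8 ± 1.38, 2.04 (adjusted p = 0.000975). Pttg1, securin, was at 58.3 ± 9.06 FPKM in control and 62.8 ± 7.08 in the combination, 0.11 (adjusted p = 0.649). Ttk, the Mps1 checkpoint kinase, was among the 23, at 1.12 (adjusted p = 0.0390) in polyIC.

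Of 11 D cyclins and G1 kinases, 2 rose and 1 fell with the combination (median 0.42), shares near those of all genes (13.1% higher and 16.3% lower). Cdk6, a kinase partner of the D cyclins, rose from 2.57 ± 0.706 FPKM to 9.92 ± 3.15, 1.59 (adjusted p = 0.00450), and Ccnh, cyclin H of the Cdk-activating kinase, rose by 0.64 (adjusted p = 0.0133). Ccnd1, cyclin D1, fell from 77.5 ± 18.2 FPKM to 44.2 ± 6.27, -0.78 (adjusted p = 0.0240). Mouse Myc was at 18.9 ± 0.909 FPKM in control and 20.4 ± 7.65 in the combination, 0.04 (adjusted p = 0.926). Of 20 inhibitors and pocket proteins listed, 19 were tested (Cdkn1c did not pass the filter). With the combination 7 rose and 2 fell, where 13.1% of all genes rose and 16.3% fell. Those that rose included the inhibitors Cdkn1a (1.23, adjusted p = 0.0309) and Cdkn2a (1.48, adjusted p = 0.0194), the pocket proteins Rbl1 (1.10, adjusted p = 0.00546) and Rbl2 (1.07, adjusted p = 0.00358), and Wee1 (0.62, adjusted p = 0.0432), the kinase that restrains Cdk1. Cdkn2b, the p15 inhibitor of Cdk4 and Cdk6, fell from 5.08 ± 2.71 FPKM to 1.17 ± 0.229, -1.37 (adjusted p = 0.00948), and Tob1, an antiproliferative gene, fell by 0.91 (adjusted p = 0.0231).

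With polyIC, 1 inhibitor or pocket protein gene rose (Rbl2, 0.90, adjusted p = 0.0298) and 1 fell (Cdkn2b, -1.67, adjusted p = 0.0175). Of all genes tested, 2.47% rose and 1.18% fell with polyIC. Of 9 other E2F and Myb factors tested (Mybl1 did not pass the filter), 6 rose and 1 fell with the combination (median 0.73). Mybl2, the B-Myb partner of FoxM1, rose from 0.676 ± 0.0788 FPKM to 2.92 ± 0.493, 1.22 (adjusted p = 0.00781), the largest of the list. E2f8, a repressor of the E2F family, rose by 1.19 (adjusted p = 0.00744), while Tfdp2, a dimer partner of E2F factors, was the 1 that fell, -0.51 (adjusted p = 0.0414). In polyIC and antiPDL1, 0 of the D cyclin and G1 kinase list and 0 of the E2F and Myb list passed in limma. At an unadjusted p under 0.05 in limma, 3 of 11 and 6 of 9 were higher in polyIC (11% of all genes). In antiPDL1 it was 1 of 11, near the share of all genes (7.61%), and 4 of 9. Of the D cyclin and G1 kinase list, 1 gene was lower in polyIC at that threshold, as were 1346 of all 11991 genes. Genes named in these lists beyond the largest and smallest difference of each were chosen after their values were seen.

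**Figure D4:**
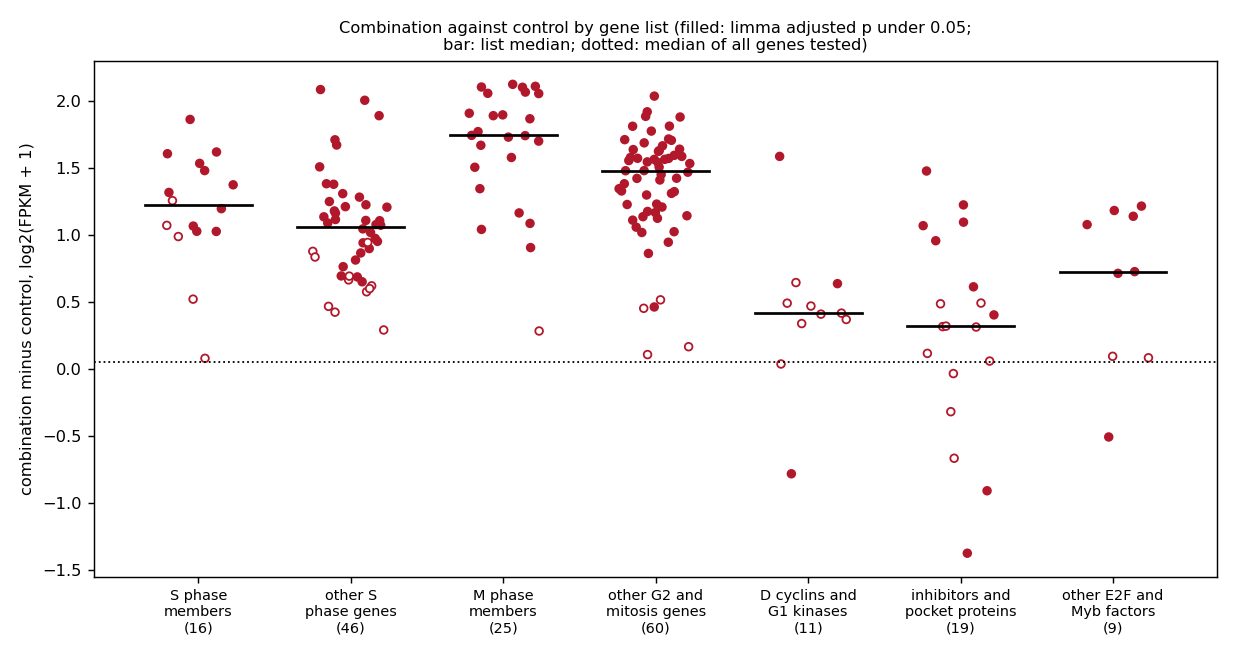
Difference between combination and control in log2(FPKM + 1) (vertical axis) for the 41 genes and the other cell cycle lists, with the number of genes tested in brackets, filled where the limma adjusted p was under 0.05. The bar is the list median and the dotted line the median of all genes tested, 0.05. The S phase, G2 and mitosis lists lie almost wholly above it, and the G1 and inhibitor lists lie on both sides.

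Markers of several cell types rose in the groups in which the cell cycle genes rose. The CD45 gene Ptprc was at 239.5 ± 29.1 FPKM in control, 389 ± 23.7 with polyIC, 311 ± 38.4 in antiPDL1 and 449 ± 59.4 in the combination. Of the 6 pan-leukocyte genes, Ptprc included, 3 rose with the combination and 0 with polyIC or the antibody. Their differences were above 0 in 6 with the combination, 4 with polyIC and 5 with the antibody. The 14 T cell markers rose in 13 of 14 with the combination (median 2.19) and in 4 of 14 with polyIC, and their summed level was 388 to 1136 FPKM in control, 1739 to 2397 with polyIC, 847 to 2233 in antiPDL1 and 2697 to 3411 in the combination. The 6 monocyte markers rose in 4 with the combination and 3 with polyIC, with sums of 329 to 693 FPKM in control, 804 to 1091 with polyIC, 414 to 1680 in antiPDL1 and 928 to 1186 in the combination. The NK cell markers rose in 6 of 8 with polyIC and 2 of 8 with the combination, with sums of 176 to 553 FPKM in control, 2233 to 3854 with polyIC, 401 to 813 in antiPDL1 and 1040 to 1506 in the combination. Neutrophil progenitor markers rose in 6 of 7 tested with polyIC and 4 of 7 with the combination, with sums of 9.54 to 43.7 FPKM in control, 302 to 551 with polyIC, 7.14 to 67.2 in antiPDL1 and 71.4 to 165 in the combination. Of all genes tested, 13.1% rose with the combination and 2.47% with polyIC. With the antibody 0 of these markers passed in limma (0.0% of all genes rose). At an unadjusted p under 0.05, 7 of 14 T cell, 3 of 6 monocyte, 2 of 8 NK cell and 0 of 7 neutrophil progenitor markers were higher. The share of all genes there was 7.61%. The part of these cell types in the cell cycle result was not tested.

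Library by library, the lists differed in how they followed the cell cycle genes. The median relative level of T cell markers in antiPDL1 was 3.07, 1.37 and 1.24 in replicate order, while that of the 41 genes was 2.90, 3.27 and 1.07. Replicate 1 was thus high in cell cycle genes and low in T cell markers. Monocyte markers in antiPDL1 were at 2.31, 2.80 and 1.12, in the same order of libraries as the 41 genes. In polyIC the 41 genes were at 3.12, 2.20 and 1.90. The monocyte markers had the same order there (2.66, 2.58 and 2.29). The T cell markers were also highest in polyIC replicate 0 (3.24, 2.33 and 2.35). In the combination the 41 genes were at 3.35, 3.81 and 2.99. There the T cell markers had the same order (4.17, 4.79 and 3.57), and the monocyte markers did not (2.22, 2.27 and 2.59). In control, where the 41 genes were at 1.02, 1.09 and 0.881, both lists were highest in replicate 2 (1.60 for T cells, 1.26 for monocytes). NK cell markers were at 1.21, 0.992 and 2.85 in the combination and 3.75, 6.49 and 6.38 in polyIC, so that every polyIC library was above every combination library.

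The other marker lists mostly fell in the combination, where 16.3% of all genes fell and 13.1% rose. B cell markers fell in 10 of 10, with sums of 443 to 1262 FPKM in control and 82.2 to 168 in the combination. Hepatocyte markers fell in 9 of 10, with sums of 956 to 3131 FPKM in control and 140.2 to 266 in the combination. Kupffer cell markers fell in 5 of 6, with sums of 1491 to 7093 FPKM in control and 136 to 328 in the combination. Oncofetal liver markers fell in 6 of 7 tested and sinusoidal endothelium markers in 6 of 6. Erythroid markers fell in 2 of 2 tested of 12 listed (Ahsp was not found). Their sums were low, at 5.49 to 15.6 FPKM in control, 4.03 to 6.58 with polyIC, 1.48 to 5.79 in antiPDL1 and 1.02 to 1.31 in the combination. Of the germinal centre B cell markers 2 of 5 were tested and 0 passed in limma (1 at an unadjusted p under 0.05), with sums of 15.2 to 17.2 FPKM in control, 16.7 to 21.5 with polyIC, 17.1 to 29.3 in antiPDL1 and 21.3 to 28.4 in the combination. Plasma cell markers rose in 1 of 6 tested (Prdm1) and fell in 2 (Sdc1 and Mzb1), and the pan-leukocyte list rose in 3 of 6 (Ptprc, Coro1a and Itgb2). No listed marker that was found was at 0 in every library. By median relative level, antiPDL1 replicate 2 was the highest of its group for hepatocyte, Kupffer cell and B cell markers. In replicate order the hepatocyte markers were at 0.299, 0.113 and 0.691, and the Kupffer cell markers at 0.164, 0.570 and 1.275. The B cell markers were at 0.210, 0.3955 and 0.549. The germinal centre and pan-leukocyte lists were lowest in that library. The part of these lists in the cell cycle result was not tested either.

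**Figure D5:**
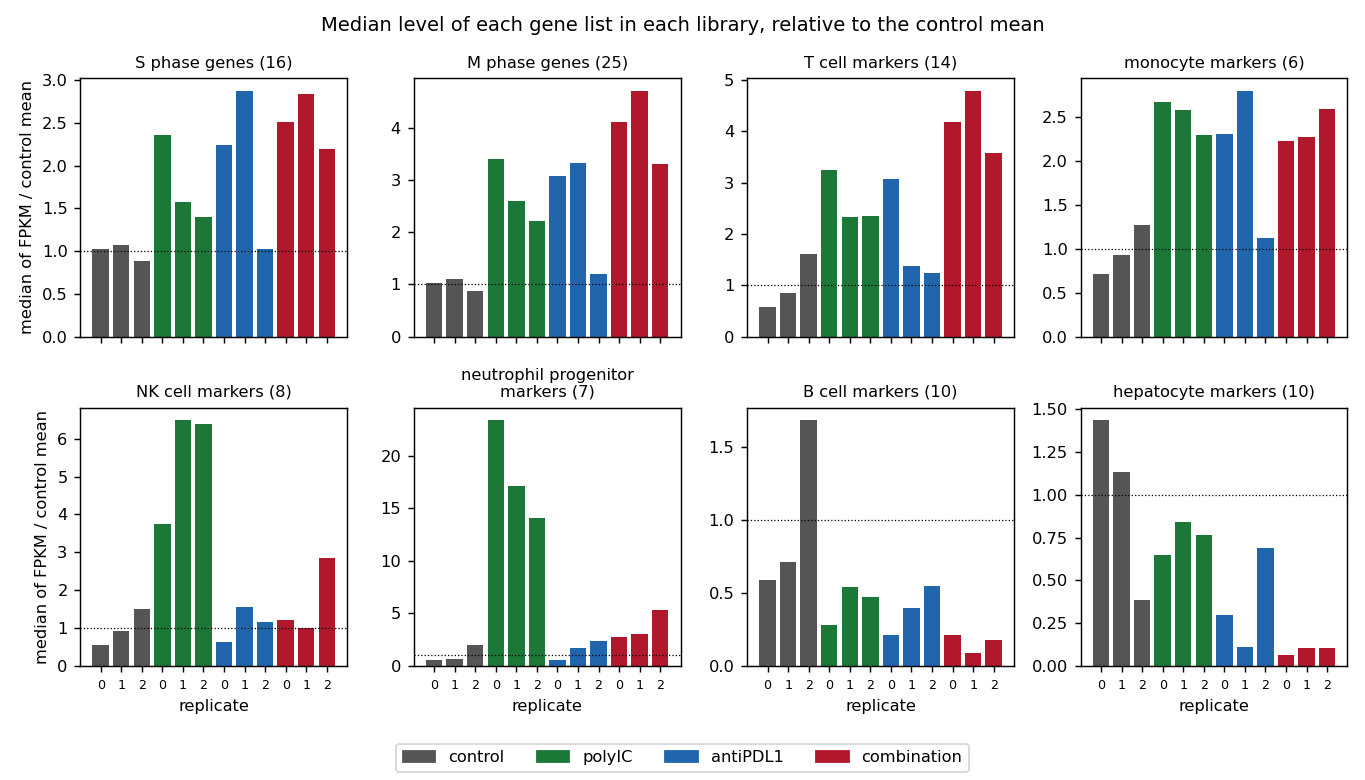
Median over each gene list of FPKM divided by its control mean (vertical axis, from 0, a separate scale in each panel) in each library (horizontal axis, replicate number), coloured by group. In antiPDL1, the bars of both cell cycle panels are tall for replicates 0 and 1 and near 1 for replicate 2, while those of the T cell panel are tall for replicate 0 only.

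The summed FPKM of a library lay between 476111 and 677535, of which 4.97% to 20.6% was the entry Mir6236. Read counts are not in the table. Relative depths recovered from the low values ran from 0.484 to 1, with 52 of 66 pairs of libraries within 0.1 log2 of them, and no counting interval was computed.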

How the data were processed

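RNA-seq of CD45+ liver cells gave 12 libraries in 4 groups of 3. The deposited values were read as FPKM, and the submitters' processing notes name Cuffdiff and the mouse build mm9. The unit rests on the values themselves, because the table the authors deposited does not name FPKM. For the Cuffdiff version, the aligner, the annotation and the scaling of libraries nothing is stated in the labels or notes used here. Genes were matched by symbol, and promoters of another build (GRCm38.p6) were matched by symbol only.

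Of these values, those of 9 genes listed at 0 in whole groups but at 5 FPKM or more in every library of another group (such as Actb and Cd74) were left out. Entries at 0 in every library numbered 5460, and 27 symbols were date-like. Tests covered the 11991 genes that reached 1 FPKM in 3 or more of 12 libraries, and used limma 3.58.1 (limma-trend, two-sided) in R 4.3.3 on log2(FPKM + 1). A single fit covered the 12 libraries with group as the only term, and the Benjamini-Hochberg adjusted p over all genes tested had to be under 0.05. The scripts were tested on simulated data. Tables were made with Python 3.11.15, pandas 2.3.3, numpy 2.4.6 and scipy 1.17.1.

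The members, gene lists and tests were chosen with earlier results of these data known. Named genes were a set by role, the largest and smallest difference in each comparison, and members whose call differed from most of their role group. Each result was recomputed with a replicate block, with array quality weights, with a pseudocount of 0.1, without the filter or with a mean of 5 FPKM as filter, after median-of-ratios rescaling or quantile normalization, from the compared groups alone, without each library in turn, and without both control replicate 2 and antiPDL1 replicate 2.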

Additional observations from a re-analysis of the deposited data

How the results depend on the processing

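The count of members called in combination against control was 35 and ranged from 30 to 38 when single libraries were left out, and 30 of the 35 genes held in every such fit. Members called in polyIC against control (12) numbered 27 after quantile normalization, 21 after median-of-ratios rescaling, 20 in a fit of only the groups compared, 35 with array quality weights and 32 without control replicate 2 and antiPDL1 replicate 2. Leaving out single libraries gave 0 to 32. Members called in antiPDL1 against control (0) numbered 3 after quantile normalization and 3 after median-of-ratios rescaling (Ccna2, Kif11 and Nusap1 in both), 38 with array quality weights, 38 without the 2 libraries, and 0 to 38 when single libraries were left out. Members called in combination against polyIC (0) numbered 1 (Prc1) in a fit of only the groups compared, 1 (Prc1) without the 2 libraries and 18 with array quality weights. Members called in combination against antiPDL1 (0) numbered 5 with array quality weights (Hmmr, Kif11, Nusap1, Prc1 and Top2a). The count was 0 under each alternative in polyIC against antiPDL1 and in the interaction of polyIC and antibody. Without the 2 libraries 10.3% of all genes rose with polyIC and 14.5% with the antibody, against 2.47% and 0.0% in the main fit. The share of all genes is not given for quantile normalization, rescaling, array quality weights, the compared groups alone or the replicate block. Those counts alone do not separate a change in these genes from one in all genes. The cause of these differences was not tested.

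Deviations from the group mean were compared between samples over all genes tested. For the 18 pairs with the same replicate number the correlation ran from -0.284 to 0.31, and 4 were over 0.1. For the 36 pairs with different numbers it ran from -0.303 to 0.372, and 3 were over 0.1. Within the 41 genes, replicate 2 was most often the lowest library of each group. It was lowest in 33 genes in control, 35 with polyIC, 41 in antiPDL1 and 30 in the combination. Whether the numbers mark a batch was not tested. The numbers were not used as pairs. With a replicate block, members called in polyIC against control numbered 21.

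Values near 0 changed sign, and the ranges here are over single libraries left out. Tk1 in polyIC against control ran from -0.014 (without control replicate 2) to 0.83, Kif23 in polyIC against control from -0.013 (same library) to 0.27, and Tk1 in combination against control from -0.0096 (same library) to 0.83. E2f1 in antiPDL1 against control was -0.0092 without control replicate 2 and ran from -0.052 (without antiPDL1 replicate 1) to 0.49, and Kif23 in antiPDL1 against control from -0.11 (without antiPDL1 replicate 1) to 0.48. E2f1 in combination against control was -0.084 with array quality weights and -0.059 without combination replicate 0, and ran from -0.14 (without control replicate 2) to 0.24. Leaving out antiPDL1 replicate 2 as well as control replicate 2 gave the same values for Tk1 and Kif23 in polyIC against control and for Tk1 and E2f1 in combination against control. Depth is known only in relative terms, so precision rests on the spread between replicates.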
